A study of Mus musculus with 9 samples.

Results

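The 10 genes described here belong to the muscle atrophy programme and to the response of muscle to glucocorticoids. They were chosen by name, and the probe set with the highest mean was used for each gene. All 10 were measured, out of 22180 genes in the table, which was fitted with no filter on low values. Levels are log2 values, in which a step of 1 is a doubling. The arrays came from 9 skeletal muscles of male C57BL/6J mice of 12 weeks, with 1 array per muscle and no treatment, genotype or injury named in the labels. The masseter and digastric formed the head group (n = 2), the trapezius, supraspinatus and triceps the shoulder and forelimb group (n = 3), and the gastrocnemius, soleus, tibialis anterior and rectus femoris the hindlimb group (n = 4). The labels give only the muscle's name, so the regions were drawn from anatomy. The labels do not say whether the RNA of a muscle came from 1 animal or a pool, nor at what hour it was taken. Every SD given for a region below is a spread between its different muscles, and p-values measure only that spread. SDs over other sets of arrays or over probe sets are named where they stand.

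Skeletal muscle loses mass when protein breakdown outruns synthesis, as in fasting, disuse, denervation or steroid excess. Transcription factors of the FoxO family are held in the cytoplasm by insulin and growth factor signalling and, once in the nucleus, switch on muscle ubiquitin ligases that mark proteins for the proteasome. Glucocorticoids act through a nuclear receptor that raises Fkbp5, Cebpd, Klf15, metallothioneins and some of the same ligases, and their blood level follows the time of day.

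Promoter windows from RefSeq (GRCm38.p6), from 250 bases before to 50 bases after a transcript start, were matched for 8 of the 10 genes, all but Fbxo32 and Cebpd. Trim63 and Mt2 are shown because they represent the ligase and metallothionein classes, and only the bases before the start are printed. In the Trim63 stretch, chr4:134314870-134315119 on the plus strand, capitals mark matches to a palindrome of glucocorticoid receptor sites, an overlapping single site and the FoxO motif. In the Mt2 stretch, chr8:94172368-94172617 on the plus strand, capitals mark matches to the metal response motif.
Trim63: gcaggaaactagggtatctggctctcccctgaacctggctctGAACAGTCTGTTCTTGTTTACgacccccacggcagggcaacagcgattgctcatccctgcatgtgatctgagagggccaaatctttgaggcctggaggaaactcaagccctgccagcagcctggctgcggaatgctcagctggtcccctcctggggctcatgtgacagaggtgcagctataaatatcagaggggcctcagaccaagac
Mt2: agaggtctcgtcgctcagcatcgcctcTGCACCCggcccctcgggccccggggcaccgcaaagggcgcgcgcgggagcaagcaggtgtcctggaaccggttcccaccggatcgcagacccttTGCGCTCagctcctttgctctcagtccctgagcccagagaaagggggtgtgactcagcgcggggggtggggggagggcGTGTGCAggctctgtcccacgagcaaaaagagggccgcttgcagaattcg

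In the RefSeq annotation of GRCm38.p6, Fbxo32 spans chr15:58175879-58214892, Trim63 chr4:134315120-134329629, Foxo1 chr3:52268337-52350109, Foxo3 chr10:42181845-42276695 and Fkbp5 chr17:28398753-28486149. Cebpd spans chr16:15887286-15889545, Klf15 chr6:90461043-90491803, Mt1 chr8:94178883-94180327, Mt2 chr8:94172618-94173567 and Eda2r chrX:97333837-97377234.

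Motifs were searched on both strands. The single site AGAACA was present at -200 in the Trim63 window, directly followed by the FoxO motif GTAAACA at -194, both on the minus strand. The single site occurred in 19.0% of 32851 windows and the FoxO motif in 3.65%. The full palindrome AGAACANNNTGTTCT matched none of the 8 windows and 0.00913% of all windows. A shorter form, GAACANNNTGTTC, searched after the Trim63 sequence had been seen, matched at -208 in Trim63 and in 0.0578% of all windows, and it overlaps the single site. The FoxO motif was also found at -125 in the Eda2r window. The metal response motif, TGCACNC or TGCGCNC, matched 4 times in Mt2, of which 1 lies after the start, and 3 times in Mt1, where 25.7% of windows held at least 1 match, 1.97% at least 3 and 0.517% at least 4. The metal response motif matched 1 time each in Foxo3 and Klf15. These are matches of letters, and binding was not measured.

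The arrays were not alike in their spread of values. Across probe sets the SD of gastrocnemius (1.919), rectus femoris (1.951) and triceps (1.957) was below that of the 6 remaining arrays, from 2.033 to 2.077. Differences within the 6 arrays of wider range are given beside several results below. The fibre markers Acta1, Ckm, Des, Mb, Tnnc2, Myh1, Myh4 and Casq1 had a list mean of 11.56 to 12.3 on every array, far above the median gene at 3.88. Salivary gland markers had list means of 3.63 in masseter and 3.24 in digastric and of at most 2.88 elsewhere, led by Klk1 at 7.28 in masseter and Bpifa2 at 5.16 in digastric. The list did not move as one, with Klk1 at 0.91 in digastric. Aqp5 was at 4.72 and 4.85 in the head muscles and Prol1 at 1.03 and 0.93, within their ranges elsewhere.

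No array held the extremes for most of the 10 genes. Soleus was highest for Trim63, Foxo1 and Foxo3 and lowest for Fkbp5 and Cebpd. Triceps was highest for Fkbp5, Cebpd and Mt1 and lowest for Klf15, while gastrocnemius was lowest for Fbxo32, Foxo1 and Foxo3. Over all genes, soleus was the highest array for 11.5% and the lowest for 12.7%, triceps for 14.1% and 8.58%, and gastrocnemius for 18.1% and 14.9%. Trapezius was highest for Klf15 and Eda2r (7.33% of all genes, and 7.76% for lowest), and rectus femoris was highest for Mt2 (15.8%) and lowest for Eda2r (12.5%). Digastric was highest for Fbxo32 (9.99%) and lowest for Trim63 (12.2%), masseter lowest for Mt2 (15.6%, and 11.8% for highest) and tibialis anterior lowest for Mt1 (9.1%, and 6.47% for highest). Supraspinatus was at neither end for any of the 10 genes (4.96% and 6.64%). Trapezius exceeded the gene's own median over the arrays for 8 of the 10 genes, against 40.6% of all genes, and gastrocnemius for 1 of 10, against 48.1%. With 1 array per muscle such counts describe these arrays. Gastrocnemius was also the array of narrowest range. The shares here and below are over all genes, dim ones included, while all of the 10 genes but Eda2r lay above the median gene. Shares over brighter genes alone are not given, so the counts are not set against genes of like level.

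**Figure D1:**
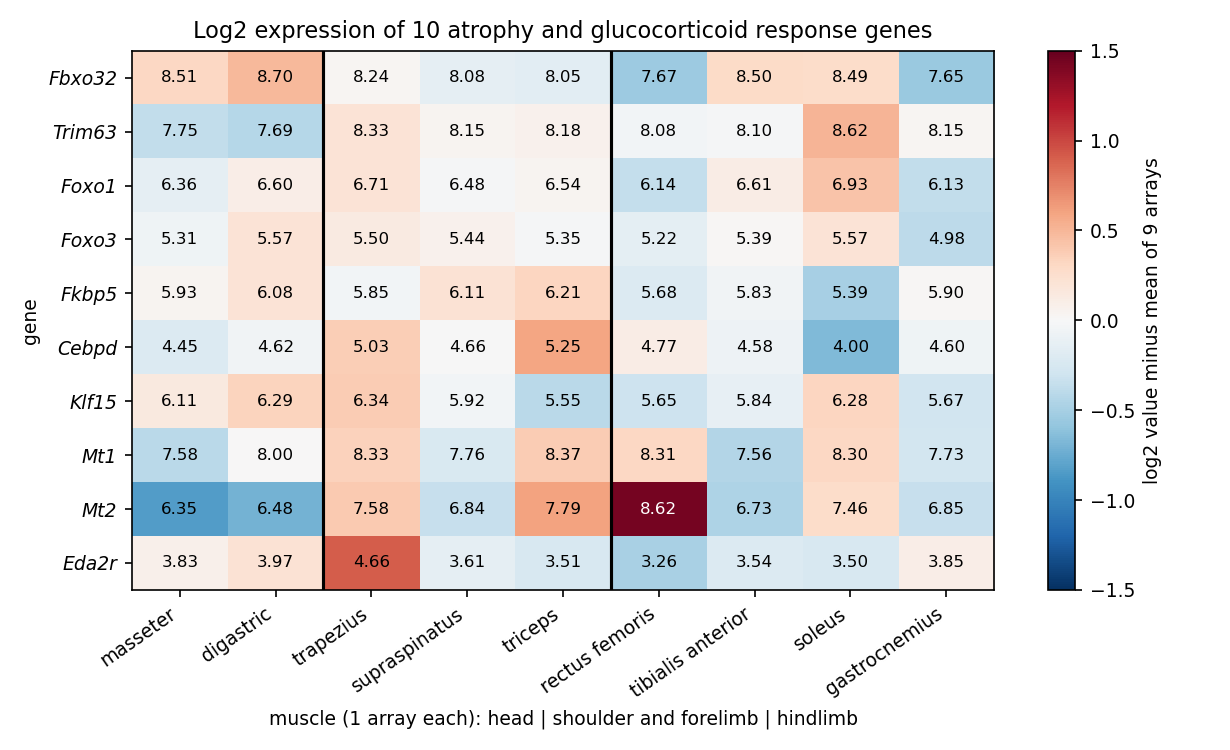
Log2 expression of the 10 genes (rows) on the 9 arrays (columns, 1 muscle each, ordered by region). Numbers are log2 levels and colours the distance from the gene's mean over the arrays. Mt2 in rectus femoris, at 8.62, and Eda2r in trapezius, at 4.66, stand out as the strongest single departures upward.

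The FoxO factors came first in the order of control. Foxo1, which responds to fasting and to loss of insulin signalling, was at 6.36 in masseter and 6.60 in digastric, at 6.71, 6.48 and 6.54 in trapezius, supraspinatus and triceps, and at 6.14, 6.61, 6.93 and 6.13 in rectus femoris, tibialis anterior, soleus and gastrocnemius. Soleus was highest and the gastrocnemius and rectus femoris were lowest, and the hindlimb muscles covered the whole range of 0.81. No gap between neighbours in the order exceeded the within-region SD of 0.29. The other probe set of Foxo1 was dimmer, with a mean of 5.25, and did not rank the muscles this way, with triceps highest at 5.63 and masseter lowest at 4.91.

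Foxo3, a relative that also drives autophagy genes, varied least of all 10, from 4.98 in gastrocnemius to 5.57 in soleus and digastric. Its values were 5.31 in masseter, 5.50, 5.44 and 5.35 in trapezius, supraspinatus and triceps, and 5.22 and 5.39 in rectus femoris and tibialis anterior. A range of 0.60 was exceeded by 75.2% of all genes. Foxo1 and Foxo3 followed each other over the 9 arrays (r = 0.87, and r = 0.77 over the 6 arrays of wider range), as a description of arrays that share their processing.

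Fbxo32, which encodes atrogin-1, the F-box subunit of a ubiquitin ligase, was at 8.51 in masseter and 8.70 in digastric. It was at 8.24, 8.08 and 8.05 in trapezius, supraspinatus and triceps, and at 7.67, 8.50, 8.49 and 7.65 in rectus femoris, tibialis anterior, soleus and gastrocnemius. Both head muscles were thus above all 7 others, with tibialis anterior at 8.50 and soleus at 8.49 next below the masseter. Over all genes 6.28% had both head arrays on top.

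Trim63, which encodes MuRF1, a ring finger ligase of the sarcomere, showed the opposite placing of the head. It was at 7.75 in masseter and 7.69 in digastric, at 8.33, 8.15 and 8.18 in trapezius, supraspinatus and triceps, and at 8.08, 8.10, 8.62 and 8.15 in rectus femoris, tibialis anterior, soleus and gastrocnemius. Both head muscles were below all 7 others, as for 6.00% of all genes, and soleus stood above the rest. The steps from rectus femoris to masseter (0.34) and from trapezius to soleus (0.29) exceeded the within-region SD of 0.19, and the other neighbours in the order differed by less.

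Set against each gene's own mean over the arrays, the Trim63 minus Fbxo32 balance was -0.68 in masseter and -0.92 in digastric. It was -0.31 in tibialis anterior and between 0.17 and 0.59 in the other 6 muscles. The r between the ligases was -0.23 over 9 arrays. The highest r with the Fbxo32 profile, at 0.77, was that of Foxo3 among the other 9 genes described here, and it was 0.18 over the 6 arrays of wider range.

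**Figure D2:**
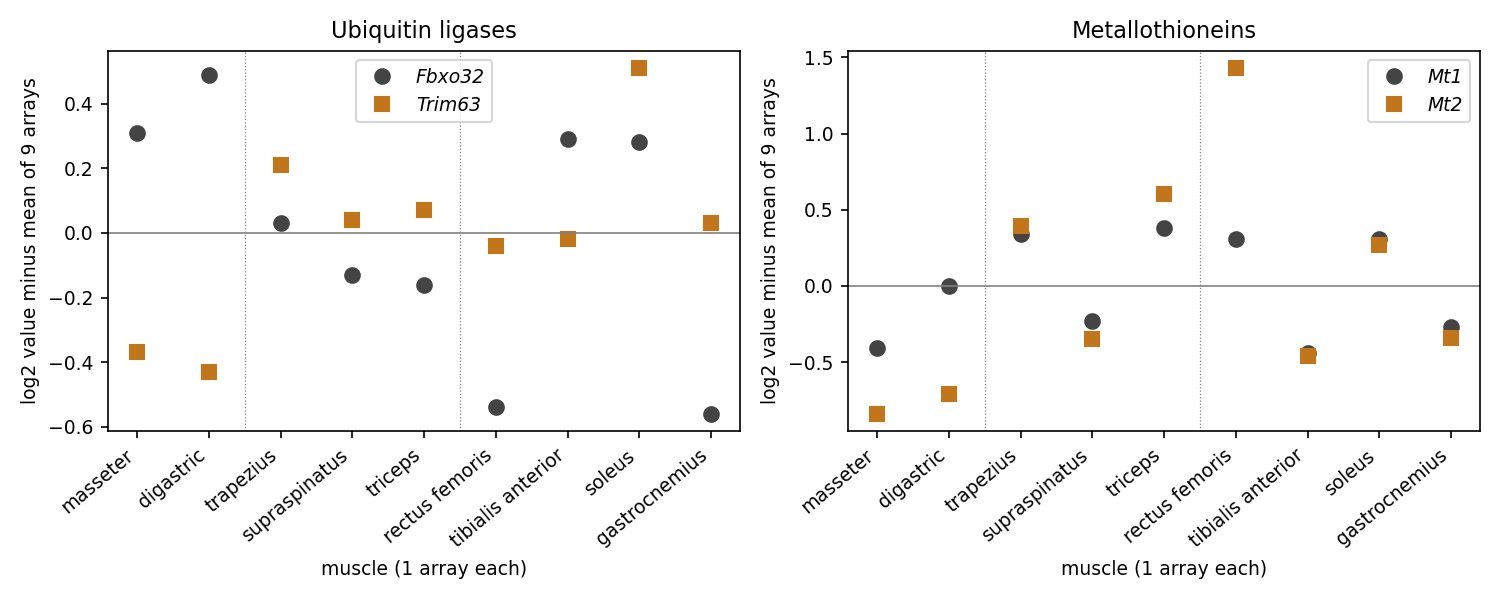
Distance of each log2 level from the gene's mean over the 9 arrays, by muscle, for the ubiquitin ligases (left) and the metallothioneins (right). Fbxo32 and Trim63 lie on opposite sides of 0 in the head muscles, while Mt1 and Mt2 share their side in every muscle but the digastric, where Mt1 is at its mean.

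In the comparison of regions, Fbxo32 was at 8.61 ± 0.13 (SD, n = 2) in head, 8.12 ± 0.10 (SD, n = 3) in shoulder and forelimb and 8.08 ± 0.48 (SD, n = 4) in hindlimb muscles. The hindlimb minus head difference was -0.53 on the log2 scale (95% interval -1.12 to 0.06, limma adjusted p = 0.451). Within the 6 wider-range arrays it was -0.11, without rectus femoris and gastrocnemius, the lowest hindlimb arrays. The shoulder and forelimb minus head difference was -0.48 (adjusted p = 0.756), and -0.45 within the 6 wider-range arrays.

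Trim63 was at 7.72 ± 0.04 (SD, n = 2) in head, 8.22 ± 0.09 (SD, n = 3) in shoulder and forelimb and 8.24 ± 0.26 (SD, n = 4) in hindlimb muscles. The hindlimb minus head difference of 0.52 was 1.43-fold (SE 0.18, 95% interval 0.11 to 0.93) and did not pass over all genes (adjusted p = 0.383). The shoulder and forelimb minus head difference was 0.51 (SE 0.19, adjusted p = 0.718). Within the 6 wider-range arrays these differences were 0.64 and 0.52. With the mean of the slow fibre list as a covariate they were 0.30 and 0.35.

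Fkbp5 encodes a co-chaperone of the glucocorticoid receptor and is one of its targets. It was at 5.93 in masseter and 6.08 in digastric, at 5.85, 6.11 and 6.21 in trapezius, supraspinatus and triceps, and at 5.68, 5.83, 5.39 and 5.90 in rectus femoris, tibialis anterior, soleus and gastrocnemius. Soleus lay 0.29 below the next muscle, more than the within-region SD of 0.20. Hindlimb muscles, at 5.70 ± 0.23 (SD, n = 4), were below shoulder and forelimb muscles at 6.06 ± 0.19 (SD, n = 3) by 0.36 on average, with overlapping arrays and no call (adjusted p = 1). All 4 hindlimb arrays were below both head arrays, with a difference of -0.30 (adjusted p = 0.518).

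Cebpd encodes C/EBP delta, a transcription factor raised by glucocorticoids and by inflammation. It was at 4.45 in masseter and 4.62 in digastric, at 5.03, 4.66 and 5.25 in trapezius, supraspinatus and triceps, and at 4.77, 4.58, 4.0 and 4.60 in rectus femoris, tibialis anterior, soleus and gastrocnemius. Triceps was highest and soleus lowest by 0.44, with the remaining 7 muscles between. The hindlimb minus shoulder and forelimb difference was -0.49 (SE 0.21, 95% interval -0.96 to -0.03, adjusted p = 1), from 4.98 ± 0.30 (SD, n = 3) to 4.49 ± 0.33 (SD, n = 4). All 3 shoulder and forelimb arrays lay above both head arrays, at a difference of 0.45 (adjusted p = 0.754).

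Klf15 encodes a zinc finger factor that directs amino acid and lipid use in muscle under glucocorticoids. It was at 6.11 in masseter and 6.29 in digastric, at 6.34, 5.92 and 5.55 in trapezius, supraspinatus and triceps, and at 5.65, 5.84, 6.28 and 5.67 in rectus femoris, tibialis anterior, soleus and gastrocnemius. Triceps, rectus femoris and gastrocnemius were its lowest muscles, and these are the arrays of narrower range (5.62 ± 0.06, SD, n = 3, against 6.13 ± 0.21, SD, n = 6). The hindlimb minus head difference was -0.34 (adjusted p = 0.583), and -0.14 within the 6 wider-range arrays. The r of Klf15 was -0.30 with Fkbp5 and -0.43 with Cebpd, and -0.31 and -0.01 over the 6 arrays of wider range. The r between Fkbp5 and Cebpd was 0.67, and 0.66 over those 6 arrays, while the Spearman rank correlation over all 9 arrays was 0.45. Soleus, which is among those 6 arrays, was the lowest array of both genes, and r without it was not computed.

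Fbxo32 had all 3 narrower-range arrays at the bottom as well, with 7.79 ± 0.22 (SD, n = 3) against 8.42 ± 0.22 (SD, n = 6). Over all genes 11.8% had these 3 arrays below the 6 others, as Fbxo32 and Klf15 did, and 9.08% had them above, as 0 of the 10 genes did. In means, Mt2 had the largest split and was higher on these 3 arrays by 0.84, with overlapping arrays. It was at 7.75 ± 0.89 (SD, n = 3) against 6.91 ± 0.51 (SD, n = 6). Foxo1 differed by -0.35, and the remaining genes by -0.32 to 0.32. With the range split as a term in the fit, the hindlimb minus head difference was -0.26 for Fbxo32 and -0.10 for Klf15, and the shoulder and forelimb minus head difference of Fbxo32 was -0.30.

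**Figure D3:**
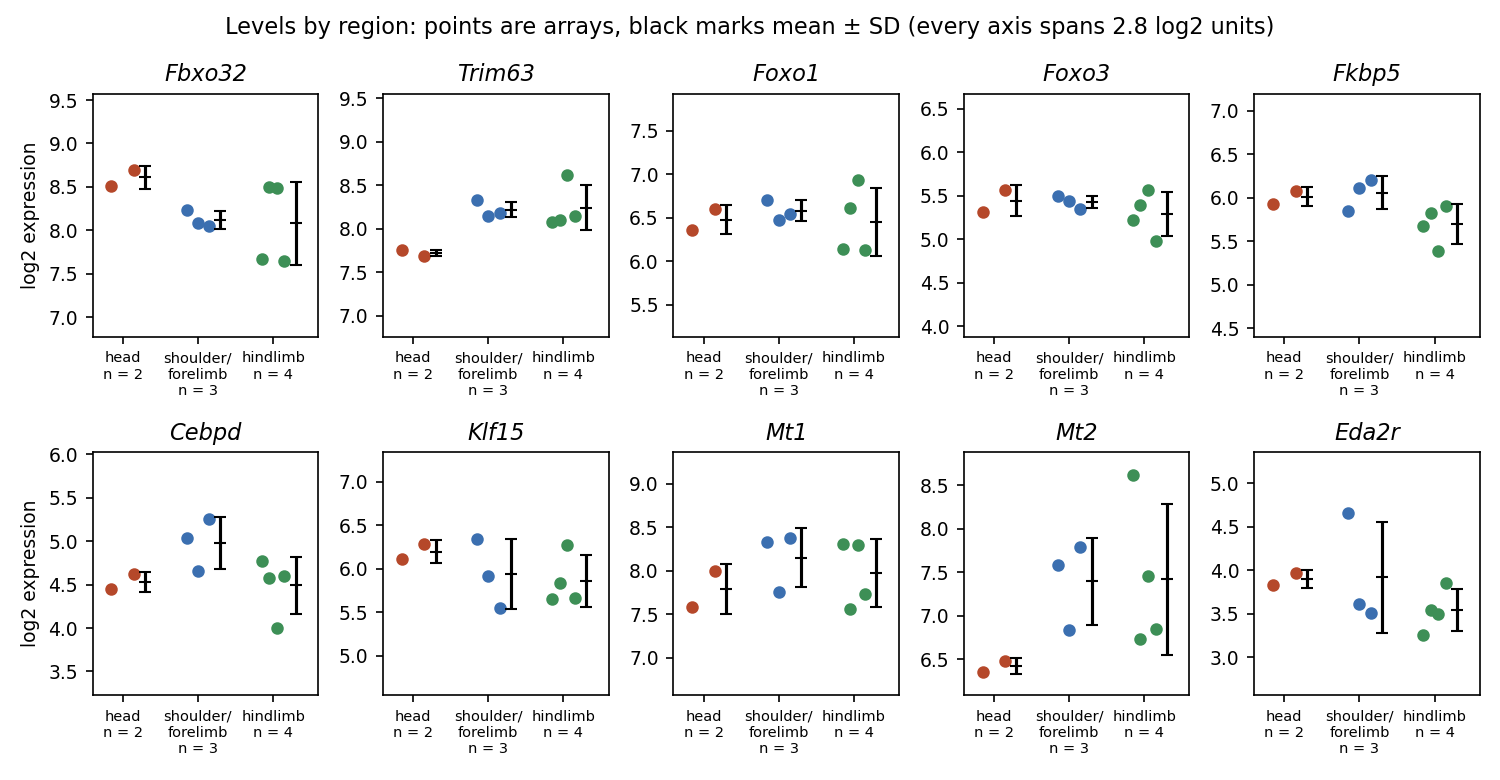
Log2 expression of the 10 genes by region. Each point is the array of 1 muscle and the black marks give the mean ± SD, with n = 2 head, 3 shoulder and forelimb and 4 hindlimb arrays. Trim63 and Mt2 are the genes whose head arrays both lie below every other array, and Fbxo32 the one whose head arrays both lie above.

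The metallothioneins are small cysteine-rich proteins that bind zinc and copper, and their genes rise with metals, glucocorticoids and inflammation. Mt2 varied most of the 10 genes. It was at 6.35 in masseter and 6.48 in digastric, at 7.58, 6.84 and 7.79 in trapezius, supraspinatus and triceps, and at 8.62, 6.73, 7.46 and 6.85 in rectus femoris, tibialis anterior, soleus and gastrocnemius. Rectus femoris was 0.84 above the next muscle and 4.83-fold above the masseter, a range that 1.79% of all genes exceeded, and both head arrays were lowest.

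Mt1 lies next to Mt2 on chromosome 8 and was flatter. It was at 7.58 in masseter and 8.0 in digastric, at 8.33, 7.76 and 8.37 in trapezius, supraspinatus and triceps, and at 8.31, 7.56, 8.30 and 7.73 in rectus femoris, tibialis anterior, soleus and gastrocnemius. Trapezius, triceps, rectus femoris and soleus formed the upper 4 for both genes (r = 0.80 over the 9 arrays and 0.82 over the 6 of wider range). The genes are close relatives, and signal shared between their probes was not tested.

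Mt2 was at 6.42 ± 0.09 (SD, n = 2) in head, 7.40 ± 0.50 (SD, n = 3) in shoulder and forelimb and 7.42 ± 0.87 (SD, n = 4) in hindlimb muscles. Both limb groups lay above both head arrays. The differences from head were 0.99 (95% interval -0.10 to 2.07, adjusted p = 0.722) and 1.0 (95% interval -0.03 to 2.03, adjusted p = 0.426), or 1.98-fold and 2-fold, and neither passed. Without rectus femoris the hindlimb difference was 0.60, and within the 6 wider-range arrays it was 0.68. The Mt1 differences from head were 0.36 and 0.18, with overlapping arrays. Without masseter the former was 0.16, without digastric 0.57 and without supraspinatus 0.56.

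Eda2r encodes the receptor of ectodysplasin A2 and is known as a p53 target that has been linked to muscle wasting. It was at 3.83 in masseter and 3.97 in digastric, at 4.66, 3.61 and 3.51 in trapezius, supraspinatus and triceps, and at 3.26, 3.54, 3.50 and 3.85 in rectus femoris, tibialis anterior, soleus and gastrocnemius. Its mean of 3.75 lay below the median gene at 3.88, and trapezius and digastric were the arrays above that value. Trapezius was 0.69 above the next muscle, and the other 8 lay between 3.26 and 3.97. Trapezius also had the highest mean of the white adipocyte markers (7.82, against 5.05 to 6.26 elsewhere), and the part of fat in the Eda2r value was not tested. The gene Eda, whose product includes the ligand, differed by 0.03 between hindlimb and head muscles.

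Across the 3 comparisons 0 of the 10 genes passed limma at an adjusted p under 0.05. The share of all genes called was 0.00902% higher and 0% lower for hindlimb against head, 0.00451% and 0% for hindlimb against shoulder and forelimb, and 0% in either direction for shoulder and forelimb against head. At an unadjusted p under 0.05, Trim63 was higher in both limb groups than in head muscles and Cebpd lower in hindlimb than in shoulder and forelimb muscles. The background shares of such genes were 5.45%, 3.17% and 1.81%. In the opposite directions 0 of the 10 genes passed that mark, beside 6.49%, 3.75% and 1.84% of all genes. Differences were above 0 for 3, 2 and 7 of the 10 genes in hindlimb against head, hindlimb against shoulder and forelimb, and shoulder and forelimb against head, beside 55.0%, 48.2% and 55.5% of all genes. The adjusted p-values of the 10 genes ran from 0.383 to 0.977 for hindlimb against head.

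Hindlimb and head arrays did not overlap for 4 of the 10 genes, with Trim63 and Mt2 higher and Fbxo32 and Fkbp5 lower in hindlimb muscles. The shares over all genes were 11.4% higher and 9.78% lower. Shoulder and forelimb arrays did not overlap the head arrays for Trim63, Cebpd and Mt2, which were higher, and Fbxo32, which was lower, against 15.2% and 14.7% of all genes. Hindlimb and shoulder and forelimb arrays overlapped for all 10 genes, where 2.32% and 2.3% of all genes were apart. The median difference of the 10 genes was -0.10, -0.13 and 0.07 in hindlimb against head, hindlimb against shoulder and forelimb, and shoulder and forelimb against head, beside 0.037, -0.008 and 0.036 over all genes. The comparisons share arrays and are not independent.

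**Figure D4:**
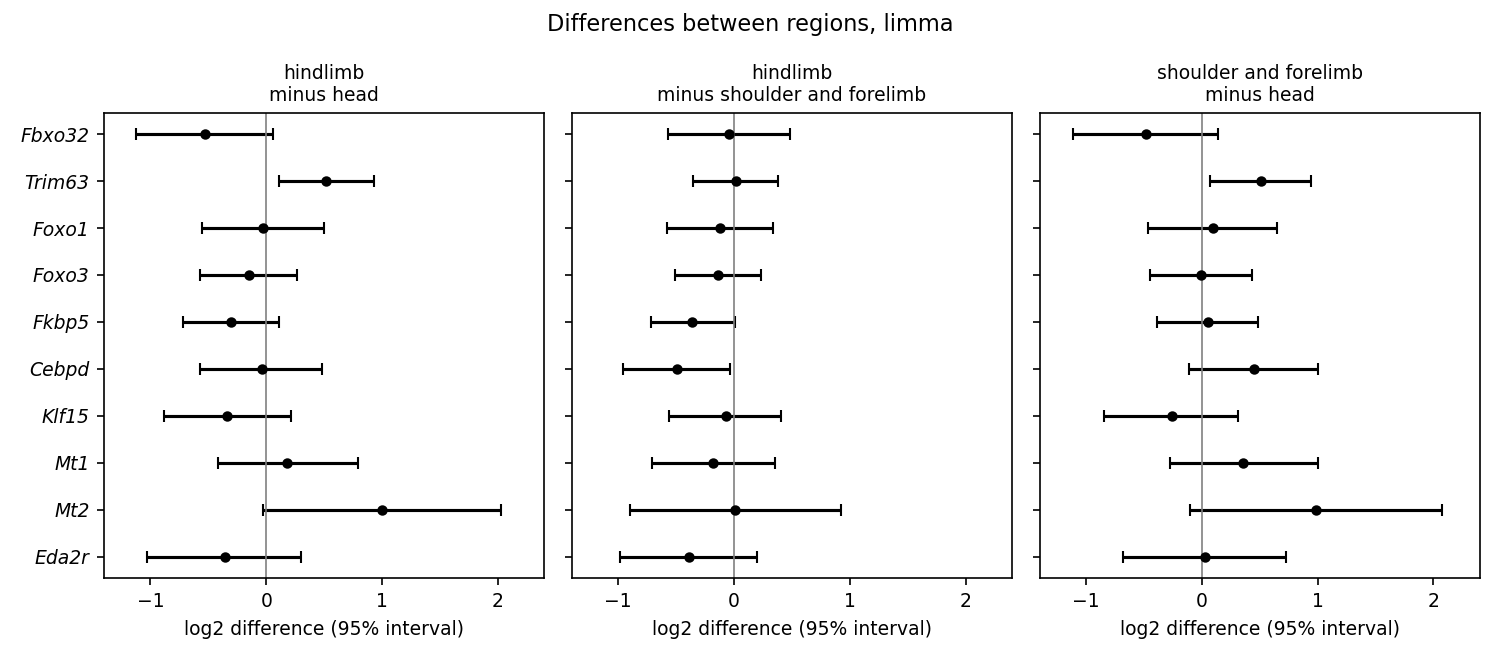
Log2 differences of the 10 genes between regions with 95% intervals from limma (all 9 arrays in 1 fit). The intervals of Trim63 lie above 0 in both comparisons with head muscles, and that of Cebpd below 0 for hindlimb minus shoulder and forelimb, before adjustment over the 22180 genes.

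The profiles were also set beside fibre type and other cell types on the same arrays, as descriptions over n = 9 arrays that share their processing. Trim63 followed the mean of the slow fibre genes (r = 0.87), which ran from 4.21 in masseter to 9.96 in soleus. It also went with the white adipocyte markers (r = 0.68, 7 of 8 measured), at 5.05 and 5.10 in the head muscles and from 5.75 to 7.82 elsewhere. Of these, Car3 was at 7.03 and 7.78 in the head muscles and from 8.62 to 11.34 elsewhere. Car3 did not follow Adipoq, for it was highest in soleus (11.34) and tibialis anterior (11.33). Adipoq was at 4.03 and 3.46 there, against 6.67 in trapezius. Whether Car3 stands for fat in these muscles was not tested, and the list mean without it was not computed. Plin1 was lower in tibialis anterior (4.09) than in the head muscles (4.45 and 4.49), and Fabp4 lower in gastrocnemius (7.18, against 8.79 and 8.84). Trim63 went against the salivary gland markers (r = -0.82), whose masseter mean was led by Klk1. The part of these lists in the Trim63 values was not tested. Fkbp5 and Cebpd followed the fast fibre genes (r = 0.79 and 0.75), whose mean was 10.79 in soleus and between 11.54 and 11.91 elsewhere. Soleus was also the lowest array of Fkbp5 and Cebpd, and r without it was not computed. Fbxo32 followed the endothelial markers (r = 0.92), which were at 7.09 and 7.32 in the head muscles and lowest in rectus femoris at 6.03. The 3 arrays of narrower range had the lowest means of the endothelial list, from 6.03 to 6.30, against 6.36 to 7.32 on the others. The part of endothelial cells in the Fbxo32 values was not tested. In whole tissue, more cells of a type and more RNA per cell cannot be told apart.

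Mt1 and Mt2 followed the myeloid markers (r = 0.74 and 0.76). The myeloid list was at 4.70 and 5.04 in the head muscles, from 5.31 to 6.21 in shoulder and forelimb and from 5.10 to 5.62 in hindlimb muscles, with triceps highest. Its 8 genes were all higher on average in both limb groups than in the head. The part of these cells in the metallothionein values was not tested. Of 13 measured clock genes, whose products peak at different hours, 0 passed for hindlimb against head, with 7 above 0 and a median of 0.13. Single members, named here after their values were seen, differed in sign. Clock differed by -1.34 (adjusted p = 0.403) and Bhlhe41 by 1.0 (adjusted p = 0.417), and within the 6 wider-range arrays by -0.47 and 0.49.

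The immediate early genes, which respond within minutes to activity and handling, had their lowest list means in the head muscles. These were 4.87 and 4.96 in the head muscles, from 4.99 to 5.22 in shoulder and forelimb and from 5.24 to 5.44 in hindlimb muscles. For hindlimb minus head 10 of the 13 genes were above 0 (median 0.28), for shoulder and forelimb minus head 6 of 13 (median -0.02). Nr4a1, an orphan nuclear receptor gene, passed for hindlimb against head (1.52, limma adjusted p = 0.0484), and the other 12 measured genes of the list did not. The r of this list was 0.56 with Trim63, 0.20 with Mt2, -0.32 with Fbxo32 and -0.44 with Fkbp5, the genes whose hindlimb and head arrays did not overlap. Its part in their values was not tested.

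**Figure D5:**
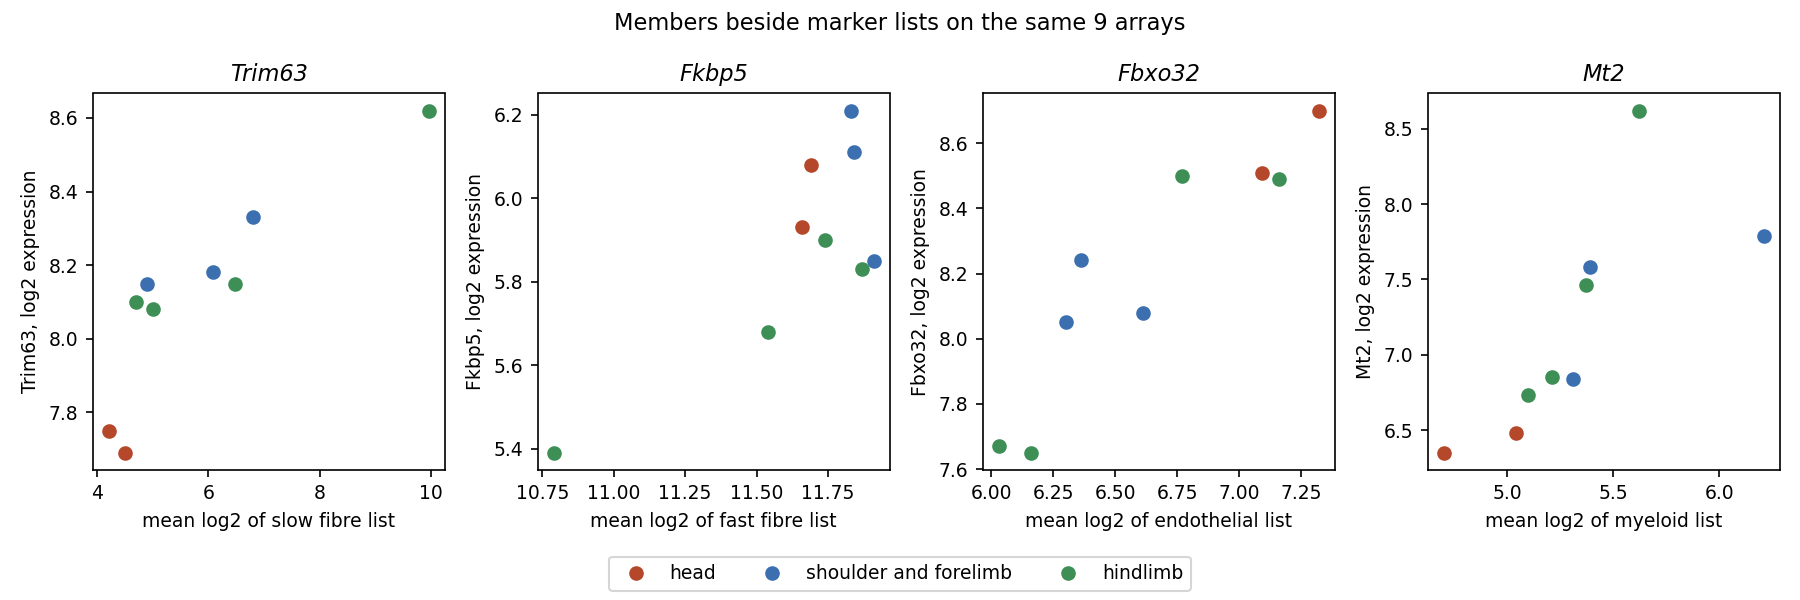
Log2 level of Trim63, Fkbp5, Fbxo32 and Mt2 (vertical axes) against the mean log2 level of the slow fibre, fast fibre, endothelial and myeloid lists (horizontal axes), 1 point per muscle, coloured by region. Soleus is the point at 9.96 in the first panel and at 10.79 in the second.

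For each gene the most similar profiles were sought among 3688 other genes above the median gene with a range of at least 1, by Pearson r over the 9 arrays. Closest to Trim63 were Irs2, an adaptor of insulin signalling (r = 0.956), Kcne1l, a potassium channel subunit (0.955), and the Wnt receptor gene Fzd9 (0.917). Irs2 was at 5.27 in masseter, 5.33 in digastric and 8.0 in soleus. Closest to Fbxo32 were Glrx5, a mitochondrial glutaredoxin (0.985), the RNA-binding protein gene Hnrnpd (0.984) and Phf20l1 (0.976), each lowest in rectus femoris or gastrocnemius and highest in digastric. Closest to Klf15 were Etfa, the electron transfer flavoprotein subunit of fatty acid oxidation (0.967), Hsdl2 (0.948) and Mfsd4b3-ps (0.945). Glrx5, Hnrnpd, Phf20l1, Etfa and Hsdl2 all had their lowest values on the arrays of narrower range, triceps, rectus femoris and gastrocnemius. Mfsd4b3-ps was lower in tibialis anterior (3.91) than in gastrocnemius (3.96). The r with the SD of the arrays across probe sets was 0.88 for Fbxo32 and 0.84 for Klf15. The part of array range in these likenesses was not tested.

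Foxo1 was most similar to Nrp2, a semaphorin receptor (0.948), Hspa2 (0.936) and Prkd2 (0.936), and Foxo3 to Fndc3a (0.957), Fchsd2 (0.949) and Pxmp2 (0.944). Mt1 was closest to Sulf2 (0.872), the complement gene C1qc of macrophages (0.859) and Maged1 (0.829), and Mt2 to Spata24 (0.961), Brpf3 (0.934) and Nkain4 (0.911). Cebpd was closest to Rps27 (0.951), a ribosomal protein gene with near-identical copies that makes its signal uncertain, Rdm1 (0.869) and Plekhb1 (0.854). The closest to Fkbp5 reached 0.846 (Rps7, likewise with copies), 0.830 (Cacng7) and 0.815 (Klhl21). Eda2r was closest to Agmo (0.902), Gpat4 (0.881) and Slc25a35 (0.841), all highest in trapezius and lowest in rectus femoris. These genes were chosen for their r, which is a description of 9 arrays.

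The wider pathway was read from lists of other genes. Of 20 genes of the glucocorticoid receptor and its targets, 0 passed in any comparison, with 6 above 0 and a median of -0.19 for hindlimb against head, beside 0.037 over all genes. The receptor gene Nr3c1, named for its role, was at 6.47 in hindlimb, 6.35 in shoulder and forelimb and 6.69 in head muscles. Within the 6 wider-range arrays Nr3c1 was at 6.64, 6.54 and 6.69 in these groups. Targets named next were chosen after their values were seen, and they differed in sign for hindlimb minus head. Per1, a clock gene with a glucocorticoid response element, differed by 0.73 (adjusted p = 0.352) and Tsc22d3, which encodes the leucine zipper protein GILZ, by 0.42 (adjusted p = 0.552), while Zbtb16 differed by -0.82 (adjusted p = 0.388) and Sesn1 by -0.93 (adjusted p = 0.307). Within the 6 wider-range arrays Tsc22d3 differed by 0.07 and Zbtb16 by -0.44. Glul, the glutamine synthetase gene, had hindlimb arrays all below the shoulder and forelimb arrays (-0.98, adjusted p = 1).

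The largest ranges in this list were those of Lcn2, an iron-carrier binding protein gene, from 4.10 in masseter to 6.87 in digastric, and Angptl4, a lipoprotein lipase inhibitor gene, from 4.81 in tibialis anterior to 6.91 in trapezius. Cdkn1a, the p21 cell cycle inhibitor gene, followed, from 5.94 in gastrocnemius to 7.78 in trapezius and 7.73 in soleus.

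Among 15 measured ubiquitin ligases and FoxO relatives 0 passed, with 4 above 0 and a median of -0.29 for hindlimb against head. Foxo6, Foxo4 and Fbxo40 are given here after their values were seen. Foxo6 had all hindlimb arrays above the head arrays (0.80, adjusted p = 0.355) and Foxo4 all below (-0.31, adjusted p = 0.493). Fbxo40, a muscle ligase subunit that acts on Irs1, differed by -0.01. Znrf2 varied most, from 3.82 in gastrocnemius to 5.64 in soleus, then Wwp1, from 7.83 in rectus femoris to 9.27 in tibialis anterior, and Fbxo21, from 5.40 in tibialis anterior to 6.72 in trapezius. Their hindlimb minus head differences were -0.49, -0.67 and -0.01, and 0.12, -0.17 and -0.0 within the 6 wider-range arrays.

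Of 10 measured proteasome genes 0 passed, with a median of -0.16 for hindlimb against head. Psmd1, Usp14 and Psmc1 had the widest ranges, each lowest in rectus femoris and highest in tibialis anterior. They differed by -0.57, -0.33 and -0.23 for hindlimb minus head, and by -0.20, 0.05 and 0.20 within the 6 wider-range arrays. Medians of this and the other lists were not computed within those arrays. Of 11 autophagy and lysosome genes 0 passed, with a median of -0.18. Lamp2, a lysosomal membrane protein gene, ran from 5.62 in gastrocnemius to 7.54 in masseter. Gabarapl1, an autophagosome protein gene, reached 7.59 in soleus against 5.86 in masseter, and Bnip3, a mitophagy receptor gene, 8.40 in soleus against 6.71 in triceps. For hindlimb minus head, Lamp2, Gabarapl1 and Bnip3 differed by -0.87, 0.34 and -0.21, and by -0.22, 0.72 and 0.35 within the 6 wider-range arrays. Soleus was the highest array for 3 of the 11 genes, beside 11.5% of all genes. That count was not particular to this list. It was 5 of 14 in growth signalling, 2 of 6 in metal handling, 2 of 10 among proteasome genes and 2 of 20 in the glucocorticoid list.

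Among 14 measured growth signalling genes 0 passed, with a median of -0.14 for hindlimb against head. Mstn, which encodes the growth inhibitor myostatin, stood at 1.56 in soleus, with the 8 remaining muscles between 5.75 and 7.19. Ppargc1a, a coactivator that restrains FoxO, ran from 6.18 in rectus femoris to 8.92 in soleus. Irs2 differed by 1.57 between hindlimb and head muscles (adjusted p = 0.355), with all 4 hindlimb arrays above both head arrays. Mstn differed by -1.81 and Ppargc1a by -0.67. Within the 6 wider-range arrays the differences were 1.9 for Irs2, -2.67 for Mstn and 0.12 for Ppargc1a.

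Of 9 measured metabolic targets of Klf15 0 passed, and 1 was above 0 in hindlimb against head (median -0.28). Gpt2, an alanine aminotransferase gene, was at 5.99 in soleus, where Klf15 was among its highest, and from 7.89 to 9.44 elsewhere. Acadm, a fatty acid dehydrogenase gene, ran from 8.31 in rectus femoris to 10.22 in soleus and digastric, and Gpt from 4.82 in tibialis anterior to 5.93 in trapezius. Hindlimb minus head differences of Gpt2, Acadm and Gpt were -0.6, -0.76 and -0.37, and -1.15, -0.08 and -0.25 within the 6 wider-range arrays. Of 6 measured metal handling genes 0 passed (median 0.07). Their widest ranges were those of Slc39a10, a zinc importer gene, from 4.17 in triceps to 5.16 in soleus, and of Mt3 and Mt4, whose means of 3.50 and 2.70 lay below the median gene. Mtf1, the factor that binds metal response elements and is named for that role, was at 5.50 in hindlimb, 5.45 in shoulder and forelimb and 5.86 in head muscles, where Mt2 was lowest. Within the 6 wider-range arrays Mtf1 was at 5.61, 5.65 and 5.86 in these groups.

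In the list of the Eda2r axis, non-canonical NF-kB and p53 targets 0 of 13 measured genes passed. For hindlimb against head 8 of the 13 were above 0 (median 0.03). The p53 targets Trp53inp1 and Ccng1 were higher on both head arrays than on every hindlimb array, with hindlimb minus head differences of -1.23 (adjusted p = 0.249) and -1.19 (adjusted p = 0.383). Ccng1 was lowest on the 3 arrays of narrower range, and within the 6 wider-range arrays the differences were -1.15 for Trp53inp1 and -0.69 for Ccng1. Tnfrsf12a, the receptor of the cytokine TWEAK, ran from 5.35 in masseter to 7.01 in soleus. Its hindlimb minus head difference was 0.67, and 0.78 within the 6 wider-range arrays. At an unadjusted p under 0.05 for hindlimb against head 3 of the 13 genes of this list were higher and 2 lower, beside 5.45% and 6.49% of all genes. The counts were 2 higher and 2 lower of 20 in the glucocorticoid list, 1 and 2 of 15 among ligases and FoxO relatives, and 1 and 1 of 14 in growth signalling. Metal handling had 1 higher of 6, the Klf15 targets 1 lower of 9, and proteasome and autophagy genes 0 either way.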

How the data were processed

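RNA of 9 muscles was hybridised to GeneChip Mouse Gene 2.0 ST arrays, per the labels. The values are log2 intensities as deposited by the authors, and the submitters' processing notes list GCRMA among their tools, with no version stated. No source used here names the genome build of the array design. Of 41345 probe sets, 23521 had 1 gene symbol, 1814 several and 16010 none. Symbols were updated through Entrez IDs to GRCm38.p6 for 23328, and the probe set with the highest mean was kept for each of 22180 genes. Array medians ran from 3.34 to 3.44, and the number of arrays limits the precision.

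Regions were compared with limma 3.58.1 (R 4.3.3, lmFit and eBayes, two-sided, all 9 arrays in 1 fit, Benjamini-Hochberg adjustment over all genes, threshold 0.05), tested on simulated data. Muscle, animal and array cannot be told apart. The 10 genes and all lists were chosen with earlier results of these data known. The text names the 10 genes, every gene of a pathway list past the threshold, the 3 widest ranges per list and the 3 most similar profiles per gene (mean above the median gene, range of at least 1, without predicted genes and small RNAs); exceptions are stated. Alternatives changed the normalization, the dim-gene filter, the probe set rule, the variance model, the arrays fitted, a term for array range, a slow fibre covariate and the place of the trapezius, and left out each array in turn. Of the other marker lists, tendon means ran from 4.43 to 7.09, and Schwann cell means from 3.81 to 4.24. Differences of list genes within the 6 wider-range arrays were added after seeing the data.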

Additional observations from a re-analysis of the deposited data

Results flagged for a closer look

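Trim63 in soleus, at 8.62, was far from the other 3 hindlimb muscles, of which the nearest was gastrocnemius at 8.15. The gap was 0.874 of the range of the hindlimb group, above the limit of 0.829 for 4 samples. The rule was run on the hindlimb group of each of the 10 genes, and no other value exceeded the limit. Chance flags about 1 in 20 groups, so a single flag over these genes can arise by chance. The slow fibre list was also highest in soleus, at 9.96, and its part in the Trim63 value was not tested beyond the covariate fit.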

How the results depend on the processing

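Under all 20 alternatives 0 of the 10 genes passed limma in each comparison, and the smallest adjusted p of any of them was 0.222. Of 30 differences, 16 kept their sign throughout, among them Fbxo32, Trim63 and Mt2 in both comparisons with head muscles, though not their size. For hindlimb minus head, Fbxo32 was -0.33 (quantile), -0.28 (cyclic loess) and -0.26 (array range as a term), Klf15 -0.16, -0.19 and -0.10, and Fkbp5 -0.13 and -0.16 (quantile, loess) and -0.14 (slow fibre). Klf15 was -0.58 with the slow fibre covariate. With trapezius placed with head, Trim63 and Mt2 were 0.32 and 0.61, and for shoulder and forelimb minus head 0.25 and 0.51, with Cebpd 0.26 and Mt1 0.09; Mt1 was 0.20 with the slow fibre covariate. The 14 others were at most 0.18 in size, and for these the cause was not tested. For hindlimb minus head, Foxo1 became 0.17 (quantile), 0.16 (cyclic loess), 0.11 (mean of probe sets), 0.18 (array range as a term) and 0.29 (6 wider arrays), and -0.19 to 0.10 with an array left out. Foxo3 became 0.04 (6 wider arrays). With the slow fibre covariate Cebpd became 0.16 and Mt1 -0.05, and with an array left out they ran from -0.14 to 0.12 and from -0.02 to 0.39. For hindlimb minus shoulder and forelimb, Fbxo32 became 0.01 (quantile), 0.08 (loess), 0.05 (range term), 0.34 (6 wider arrays) and 0.01 (trapezius with head), and -0.18 to 0.10 with an array left out. Trim63 became -0.02 (median centring) and -0.05 (slow fibre), and -0.11 to 0.07. Foxo1 became 0.18 and Foxo3 0.02 (6 wider arrays). Klf15 became 0.00 (loess and range term) and 0.13 (trapezius with head), and -0.27 to 0.13. Mt2 became -0.02 (median centring), -0.09 (range term), -0.11 (6 wider arrays) and 0.00 (slow fibre), and -0.39 to 0.24. For shoulder and forelimb minus head, Foxo1 became -0.07 (slow fibre) and -0.05 (trapezius with head), and -0.03 to 0.22. Foxo3 became 0.05 (quantile), 0.03 (loess), 0.08 (range term) and 0.02 (6 wider arrays), and -0.14 to 0.11. Fkbp5 became 0.00 (median centring), -0.01 (range term) and -0.02 (6 wider arrays), and -0.03 to 0.16. Eda2r became -0.03 (median centring), -0.04 (quantile), -0.03 (loess), -0.07 (slow fibre) and -0.60 (trapezius with head), and -0.34 to 0.24. Eda2r lies below the dim-gene filter and has no value there. No paired analysis was possible because the labels carry no replicate numbers and each muscle has 1 array. For hindlimb minus shoulder and forelimb, Eda2r went from -0.39 to -0.02 without trapezius and to -0.60 without triceps. Signal over background was not measured here.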
